A study of Mus musculus with 2 samples.

Results

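The thyroid hormone axis of the hypothalamus was followed here through 9 genes in the suprachiasmatic nucleus (SCN), a paired hypothalamic nucleus that acts as the main circadian clock of the brain. They were chosen by symbol from a deposited table of 24229 genes: the thyrotropin-releasing hormone gene Trh and its receptor Trhr, the thyrotropin receptor Tshr, the deiodinases Dio2 and Dio3, the hormone transporter Slco1c1, the hormone-binding protein Crym, and the nuclear receptors Thra and Thrb. All 9 were found. The set was selected on knowledge of the ST to NT ratios in these same libraries, among them that of Trh, so every ST to NT value below is a description.

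Thyrotropin-releasing hormone (TRH) is a short peptide cut from a precursor and made in several groups of hypothalamic neurons, of which those of the paraventricular nucleus drive the release of thyrotropin (TSH) from the pituitary and with it thyroid hormone output. In the brain, the prohormone thyroxine enters through membrane transporters, is turned into active triiodothyronine (T3) by the type 2 deiodinase, mainly in astrocytes and tanycytes, and is inactivated by the type 3 deiodinase. T3 binds nuclear receptors that raise or lower the transcription of their targets, and Trh itself is lowered by T3 in paraventricular neurons. In seasonal species, TSH of the pars tuberalis acts on tanycytes to set the balance of both deiodinases by day length.

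The mice were wild-type C57BL/6 animals of postnatal day 68 in 2 groups, one held on a normal T-cycle (NT) and one on a short T-cycle (ST), a T-cycle being a light-dark schedule of set period. Per the labels, both groups of 8 mice spent 7 days in darkness before entrainment, wheel running in darkness was recorded from 4 weeks on, and tissue was collected at circadian time 4 h following 5 days of constant darkness. Each group is 1 library of polyadenylated RNA from microdissected SCN, with 19476800 counts in ST and 24790727 in NT. Neither the length of the T-cycles nor how many mice entered a library is stated in the labels. With 1 library per group there are no replicates, so no p-value was computed, all differences compare these libraries and not the conditions, and intervals are 95% intervals for counting error only. Counts were brought to a common depth with a size factor of 0.89 for ST and 1.12 for NT, and a gene was called measured when its mean normalised count was at least 50, which 6 of the 9 genes reached.

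SCN markers were present in both libraries, with the peptide gene Vip at 168 RPKM in ST and 197 in NT (counts scaled for gene length and library total) and Avp at 656 and 563. Genes that mark other hypothalamic nuclei were present too. The oxytocin gene Oxt was above both, at 812 RPKM in ST and 655 in NT. Pomc, which arcuate neurons express, was at 7.19 and 37.9. Which cells carried the RNA of the 9 genes was not tested. Vip was 1.18-fold lower in ST (interval 1.14 to 1.22). Markers of several other cell types differed between the libraries as well: all 10 oligodendrocyte genes, 7 of 8 microglial genes and 9 of 12 endothelial genes had an interval wholly below an ST to NT ratio of 1. Of all 14343 measured genes, 10.2% had such an interval and 7.79% had one wholly above 1. In bulk tissue, fewer cells of a type and less RNA per cell cannot be told apart.

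On the RPKM scale, which allows genes to be set side by side, the 9 genes spread widely. Thra was highest, at 123 RPKM in ST (interval 121 to 126) and 118 in NT (116 to 120), and lay at percentile 98.2 of all listed genes in ST. Trh followed with 90.7 in ST (87.2 to 94.4) and 60.8 in NT (58.3 to 63.5). Slco1c1 came next at 10.02 RPKM in ST and 13.5 in NT.

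Thrb and Trhr lay near the middle of the table, Thrb at 3.10 RPKM in ST and 3.15 in NT and Trhr at 2.84 and 2.53, and their counting intervals overlapped in both libraries. Dio2 was at 0.679 and 0.604 RPKM, below Trhr in both. Tshr, at 0.290 and 0.304, and Crym, at 0.258 and 0.393, exchanged places between the libraries with overlapping intervals. Dio3 was lowest, at 0.142 in ST and 0.0557 in NT. Its ST interval (0.0386 to 0.363) overlapped those of Crym and Tshr, and in NT the intervals of Dio2 and Crym overlapped.

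**Figure D1:**
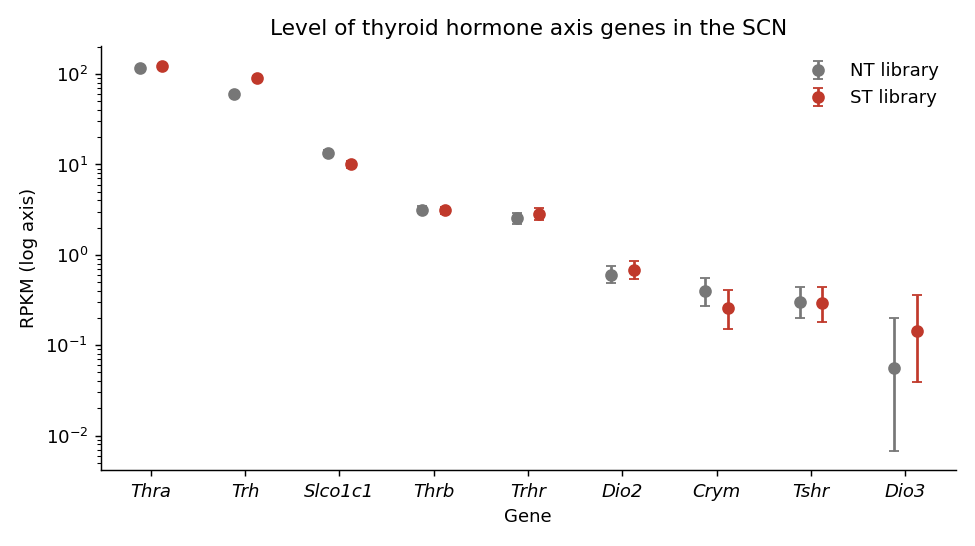
Deposited RPKM of the 9 genes (vertical log axis) in the NT library (grey) and the ST library (red), ordered by the NT value; bars are 95% Poisson intervals of the counts and do not show biological spread. ST lies above NT for Trh (90.7 against 60.8 RPKM) and, by a small margin, for Thra (123 against 118), and below it for Slco1c1 (10.02 against 13.5).

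Trh, the ligand at the head of the axis, was the gene of the 9 whose ratio stood farthest from 1 relative to its counting error. It had 2440 counts in ST and 2083 in NT, although the NT library was the deeper one, and 2741 against 1854 after normalisation. The ST level was 1.48-fold higher (interval 1.39 to 1.57, log2 ratio 0.56). Of all 14343 measured genes, 50 had a higher log2 ratio. Among the 2193 other genes at least as abundant as Trh, only Ndn, the imprinted gene of necdin, lay above it, at 1.58-fold. Trh shares no reads with other features and no listed gene overlaps it. In mm9 it spans 92192055 to 92194644 on the minus strand of chromosome 6 (ENSMUSG00000005892), with 3 exons in 1 annotated transcript. In the authors' deposited table its adjusted p is 0.00731, which rests on the same single library per group.

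The bases upstream of Trh are printed because it is the gene of the axis that stood apart, and those of Dio2 because it is the deiodinase gene of the same pathway and carries another of the motifs searched. Both are the 250 bases before the RefSeq transcription start (GRCm38.p6 table), found once each in the mm9 genome, at chr6:92194645-92194894 and chr12:91977479-91977728, both on the minus strand and written 5′ to 3′. Capitals mark the motif found in each.
Trh: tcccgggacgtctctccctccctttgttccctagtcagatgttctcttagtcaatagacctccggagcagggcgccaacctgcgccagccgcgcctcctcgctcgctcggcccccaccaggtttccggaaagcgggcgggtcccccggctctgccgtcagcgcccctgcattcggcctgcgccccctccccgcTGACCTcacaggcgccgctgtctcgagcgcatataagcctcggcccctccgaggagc
Dio2: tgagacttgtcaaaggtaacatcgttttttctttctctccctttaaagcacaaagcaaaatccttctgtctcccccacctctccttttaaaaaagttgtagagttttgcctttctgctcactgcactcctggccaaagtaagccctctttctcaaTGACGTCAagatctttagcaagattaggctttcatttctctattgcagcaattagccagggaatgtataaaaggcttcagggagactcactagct
The 3 motifs searched on both strands were the cAMP response element TGACGTCA, the thyroid hormone receptor half-site AGGTCA and the E-box CACGTG, none of which overlapped another here. The Trh window holds 1 half-site, read on the gene's strand as TGACCT from 57 to 52 bases before the start, and neither of the others. The Dio2 window holds 1 cAMP response element from 95 to 88 bases before the start. Unlike the Trh window, it does not adjoin the counted gene, which ends at 91976878 on chromosome 12. It lies within a clone-named locus of the other strand (91976641 to 91989133). Across 32851 windows of the same length, 14.0% held the half-site, 1.55% the cAMP response element and 6.02% the E-box. Of the 9 genes, 5 had a window in the table, and 1 of the 2 for Thrb held both a half-site and an E-box. These are matches of letters, not shown to be bound.

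Of the genes that mark the paraventricular nucleus, where TRH neurons are dense, those of both posterior pituitary peptides were higher in ST. Oxt, the oxytocin gene and the most abundant of them, was 1.23-fold higher (1.19 to 1.27), on 8789 and 9026 counts in ST and NT, and Avp, the vasopressin gene that SCN neurons share, was 1.16-fold higher (1.12 to 1.19). The transcription factors Sim1 and Otp, which specify paraventricular neurons, were at 1.15-fold (0.962 to 1.37) and 1.14-fold (0.964 to 1.35), with intervals that held 1. Of 6 measured genes of this list, 4 were higher in ST and 2 lower. The lower genes were Pou3f2, at a ratio of 0.937 (0.739 to 1.19), and Arnt2, at 0.976 (0.946 to 1.01). Intervals lay above 1 for 2 genes and below 1 for 0, beside 7.79% and 10.2% of all measured genes. The median log2 ratio was 0.19, beside 0.00 for all measured genes. Crh, the corticotropin-releasing hormone gene, was below the filter with 32 counts against 15 (2.69-fold higher, 1.42 to 5.35). Oxt, Avp and Arnt2 share reads with other features.

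Set against these markers within each library, which removes library scaling, Trh was higher in ST relative to Sim1 and Oxt but not to Crh. There were 9.84 Trh counts per Sim1 count in ST and 7.63 in NT, a ratio 1.29-fold higher in ST (interval 1.07 to 1.55). Against Oxt the ratio was 1.203-fold higher (1.13 to 1.29). Against Crh, with few counts, it was 0.549 (0.276 to 1.05). The part of paraventricular or other tissue outside the SCN in the Trh difference was not tested further.

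The genes with the log2 ratio nearest to that of Trh, among genes whose mean normalised count reached 200, came from several classes. The nearest was Hr, which encodes the corepressor hairless and is a known T3-responsive gene of brain: it was 1.47-fold higher (1.33 to 1.62), on 872 and 749 counts. Next were the activity-induced transcription factors Fosb (1.46-fold, 1.22 to 1.76) and Junb (1.45-fold, 1.27 to 1.66), the peptide gene Cck (1.45-fold, 1.22 to 1.72) and Nrn1, which encodes neuritin (1.42-fold, 1.202 to 1.68). Likeness here is the distance between log2 ratios over 2 libraries, from 0.0091 for Hr to 0.059 for Nrn1, so it says only that these ratios were close.

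**Figure D2:**
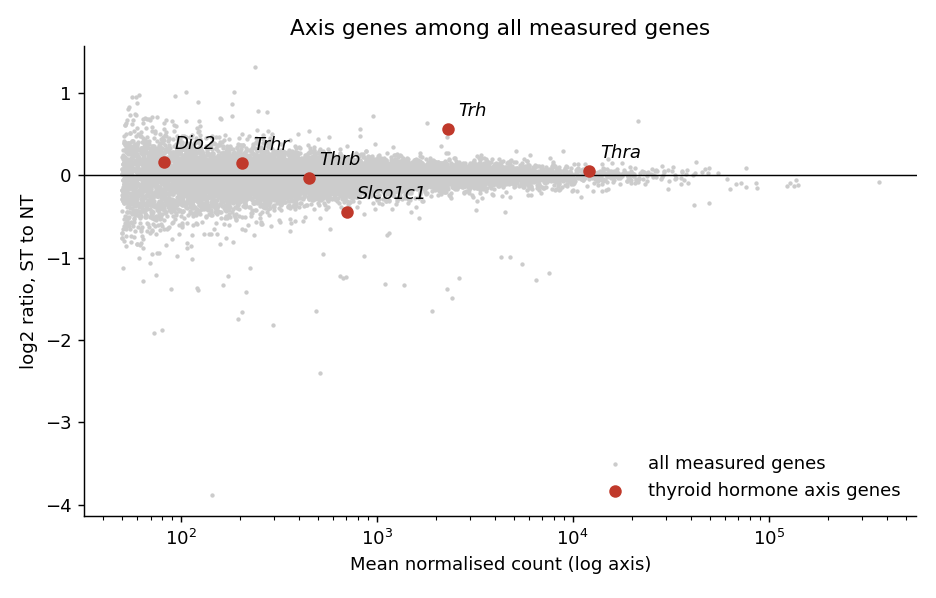
Log2 ratio of ST to NT normalised counts (vertical axis) against mean normalised count (horizontal log axis) for all 14343 measured genes (grey) and the 6 measured genes of the axis (red). Trh lies at the upper edge of the cloud at its abundance (0.56), Slco1c1 toward the lower edge (-0.45), and the other 4 lie between -0.04 and 0.16.

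Genes of the machinery that makes and destroys the TRH peptide were near equal in the bulk RNA of both libraries. Their level within TRH cells was not measured. The prohormone convertase gene Pcsk1 had 952 counts in ST and 1176 in NT, which after normalisation is 1.02-fold (0.937 to 1.11), and the second convertase gene Pcsk2 was also at 1.02-fold (0.982 to 1.06). The amidating enzyme gene Pam was at a ratio of 0.9998 (0.961 to 1.04), and Trhde, which encodes the ectoenzyme that degrades TRH, at 1.02-fold (0.907 to 1.14). Cpe, the carboxypeptidase that trims the cut peptides, was 1.03-fold lower (1.01 to 1.05), the 1 gene among 8 with an interval clear of 1. Of all measured genes, 7.79% had an interval above 1 and 10.2% below. Prep and Pgpep1, both peptidases that can cleave TRH, were at log2 ratios of -0.08 and -0.06, and Qpct, the glutaminyl cyclase that forms the modified first residue of TRH, at -0.04, each with an interval that held 1. The list median was -0.02.

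The receptor genes gave no clear difference at this depth. Trhr, the Gq-coupled receptor for TRH, had 193 counts in ST and 219 in NT, a ratio of 1.11 (0.912 to 1.36). Tshr, the TSH receptor, had 21 and 28 counts, below the filter, with a ratio of 0.947 (0.511 to 1.73). The interval for Trhr leaves room for a level 1.36-fold higher, so a difference as large as that of Trh lies outside it, whereas the interval for Tshr holds one. Of the 4 measured coupling genes, the Gs subunit Gnas was 1.06-fold higher (1.05 to 1.07, shared reads), the Gq subunit Gnaq was at a ratio of 0.958 (0.917 to 0.9999), and Gna11 and Plcb1 had intervals that held 1. The second TRH receptor gene, Trhr2, was below the filter.

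The TSH side of the pathway was scarcely present. Tshb, the TSH beta subunit, had 5 counts in ST and 13 in NT (ratio 0.485, 0.135 to 1.45), and Cga, its partner subunit, and Kiss1 had no row in the table used here. The 3 measured photoperiodic genes had intervals that held 1: the tanycyte receptor Gpr50 at a log2 ratio of 0.21, Eya3, a coactivator of Tshb, at -0.08, and Kiss1r at -0.01. Among receptors through which feeding signals reach TRH neurons, Npy1r was at 1.02-fold (0.900 to 1.16) and Npy5r with 165 and 259 counts was 1.24-fold lower (1.02 to 1.52), while Mc4r and Lepr were below the filter.

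Dio2, which makes T3, had 77 counts in ST and 87 in NT, a ratio of 1.12 (0.811 to 1.54) that the depth cannot tell from 1. The ST count was fractional before rounding, so Dio2 shares reads, and a clone-named locus on the other strand overlaps it by 238 bases. Dio3, which inactivates the hormone, had 4 and 2 counts (ratio 2.52, 0.362 to 27.9), too few for a direction. Per length, Dio2 exceeded Dio3 4.79-fold in ST and 10.8-fold in NT, and the ST to NT ratio of these quotients, from the counts, was 0.443 (0.0392 to 3.20).

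Markers of the cells known to express Dio2 differed by cell type: the tanycyte and ependymal median was near 0, and most astrocyte intervals lay below 1, at differences mostly under 1.2-fold. The 9 measured tanycyte and ependymal genes had a median log2 ratio of 0.01, from -0.14 for Scn7a to 0.23 for Dynlrb2. Of their intervals, 1 lay above 1 and 1 below. The tanycyte factor Rax was nearly absent and below the filter, with 7 counts in ST and 1 in NT (ratio 8.83, 1.14 to 398). The 10 astrocyte genes had a median of -0.08, with 7 intervals below 1 and 1 above, beside 10.2% and 7.79% of all measured genes. Many of them are abundant, which makes their intervals narrow. By size, 1 of the 10 was at least 1.2-fold lower, beside 6.13% of all measured genes, and their summed level was 1.04-fold lower. Per 1000 counts of the astrocyte list, Dio2 had 0.843 in ST and 0.723 in NT (ratio 1.17, 0.847 to 1.60), and per 1000 counts of the tanycyte and ependymal list 9.89 and 9.23 (ratio 1.07, 0.777 to 1.48). Both ratios had intervals that held 1.

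Of the genes that serve the deiodinases, Eefsec, the elongation factor for selenocysteine that deiodinases contain, was 1.26-fold higher in ST (interval 1.05 to 1.52) with 229 counts in each library. The deubiquitinase genes Usp20 and Usp33, whose products stabilise the type 2 enzyme, went opposite ways, Usp20 1.06-fold higher (1.01 to 1.12, shared reads) and Usp33 1.08-fold lower (1.03 to 1.14). Sepsecs, of selenocysteine synthesis, had an interval that held 1 (log2 ratio -0.11). Of the 7 measured genes of this list, 2 had an interval above 1 and 2 below, beside 7.79% and 10.2% of all measured genes. The median was -0.02. Dio1 and the thyroxine carrier Ttr were below the filter; Ttr, a choroid plexus gene, was 2.11-fold lower (1.21 to 3.86) on 18 counts in ST and 48 in NT.

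Slco1c1, the thyroxine transporter of brain endothelium and astrocytes, was the 1 measured gene of the axis with its whole interval below an ST to NT ratio of 1. Its counts were 528 (ST) and 908 (NT), or 593 and 808 after normalisation, which is 1.36-fold lower (interval 1.22 to 1.52, log2 ratio -0.45). Its log2 ratio lay at percentile 1.72 of all measured genes, and 18 of the 6648 other genes at least as abundant lay below it. It shares no reads and no listed gene overlaps it. In mm9 it spans 141472907 to 141518241 on the plus strand of chromosome 6 (ENSMUSG00000030235). In the authors' deposited table its p is 0.00403 and its adjusted p 0.807, and the 7 genes of the axis other than Trh and Slco1c1 have an adjusted p of 1 there.

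Among the other transporters, 3 were lower in ST with an interval clear of 1. Slco1a4, a second organic anion transporter of the blood-brain barrier that carries thyroxine, was 1.33-fold lower (1.22 to 1.46, 751 counts against 1265, shared reads). The amino acid transporter subunits Slc3a2 and Slc7a5, which also carry thyroid hormones, were 1.098-fold (1.04 to 1.16) and 1.08-fold lower (1.01 to 1.15). Slc7a8, another amino acid transporter subunit, was at a ratio of 1.06 (0.941 to 1.19). Of the 5 measured, 3 thus had an interval below 1 and 0 above, beside 10.2% and 7.79% of all measured genes. The median log2 ratio was -0.13. Slc16a10 was below the filter.

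Most endothelial markers were lower in ST too. Of 12 measured genes, 11 were lower in ST, 9 of them with their whole interval below 1, beside 10.2% of all measured genes. The median log2 ratio was -0.31, with a range from -0.45 for Emcn to 0.06 for Mfsd2a. The summed level of the list was 1.13-fold lower, at 8033 against 9082 normalised counts, of which the glucose transporter gene Slc2a1 made up a large part. Per 1000 counts of this list there were 73.8 Slco1c1 counts in ST and 89.0 in NT, a ratio of 0.830 (0.741 to 0.929). Without Slc2a1 the ratio was 0.889 (0.791 to 0.998), with an upper bound just under 1. The astrocyte list, the other known site of Slco1c1, summed to 102586 and 107176 normalised counts, and Aqp4 was its lowest gene at a log2 ratio of -0.32. The part of endothelial content in the Slco1c1 difference was not tested further.

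**Figure D3:**
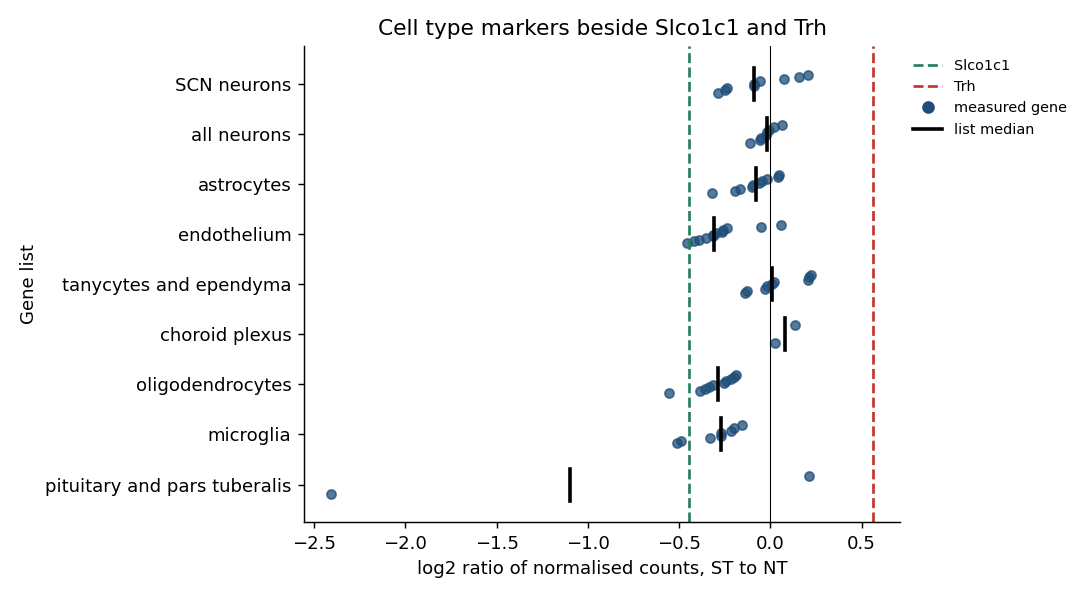
Log2 ratio of ST to NT normalised counts (horizontal axis) for the measured genes of 9 marker lists (points, 1 per gene) with list medians (black bars); dashed lines are Slco1c1 (-0.45, green) and Trh (0.56, red). Slco1c1 lies at the low end of the endothelial genes, whose median is -0.31, and Trh lies above every marker shown.

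Crym, which binds T3 in the cytosol, was scarce: 17 counts in ST and 33 in NT, below the filter, with a ratio of 0.650 (0.340 to 1.201). Per 1000 counts of the astrocyte list, used as a scale only, it had 0.186 and 0.274 (ratio 0.679, 0.355 to 1.26). Neither ratio could be told from 1 at this depth, and which cells carried Crym was not tested.

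The nuclear receptor genes were close to equal. Thra, the alpha receptor, had 11031 counts in ST and 13397 in NT and was 1.04-fold higher (1.01 to 1.07), a small difference whose interval is narrow because the gene is abundant. Thrb, the beta receptor, had 395 and 511 counts, a ratio of 0.976 (0.853 to 1.11). Per length, Thra exceeded Thrb 39.7-fold in ST and 37.3-fold in NT, and the ST to NT ratio of the 2 genes' counts was 1.07 (0.930 to 1.22).

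The value of Thra is less certain than its interval shows. Its 3′ end overlaps Nr1d1, the clock repressor REV-ERB alpha on the opposite strand, over 1075 bases of mm9 chromosome 11, of which 263 are exonic in both genes (5.70% of the bases in Thra exons). Both genes had fractional counts, Thra in NT only, which does not show with which feature the reads are shared. Nr1d1 was 1.12-fold higher in ST (1.07 to 1.17). Whether the counting used strand is not stated, so reads of the 2 genes there cannot be told apart. The annotation holds 10 Thra transcripts, which include forms that do not bind T3, and the table gives 1 value for all of them.

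Partners of the receptors showed small differences, none as large as 1.2-fold. Of 15 measured genes, 4 had an interval above 1 and 0 below, beside 7.79% and 10.2% of all measured genes. The median log2 ratio was 0.01. The acetyltransferase gene Crebbp was 1.19-fold higher in ST (interval 1.104 to 1.29, from 1227 and 1296 counts) and Med1, the Mediator subunit that contacts the receptors, 1.097-fold (1.01 to 1.19, shared reads). Ep300, a second acetyltransferase gene, also had an interval above 1, at a log2 ratio of 0.08. Tbl1xr1, a corepressor complex subunit, had an interval that held 1 (log2 ratio -0.13).

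Genes known to be raised by T3 in brain did not move in one direction. Of 14 measured genes, 2 had an interval above 1, Hr (1.47-fold) and Rasd2, a striatal GTP-binding protein gene (1.097-fold, 1.01 to 1.19), and 5 had one below. The shares of all measured genes were 7.79% above and 10.2% below. Among the lower genes were the interferon-induced GTPase gene Gbp3 (1.86-fold lower, 1.39 to 2.51), the kinase gene Camk4 (1.35-fold, 1.01 to 1.81), the myelin gene Mbp (1.26-fold, 1.24 to 1.28) and Itih3 (1.05-fold, 1.02 to 1.08). Mbp also stands in the oligodendrocyte list, where all 10 genes were lower with a median of -0.29. Gbp3, Camk4 and Mbp share reads. The list median was -0.07, and Klf9, a direct T3 target in neurons, was at 0.01, named after its value was seen.

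**Figure D4:**
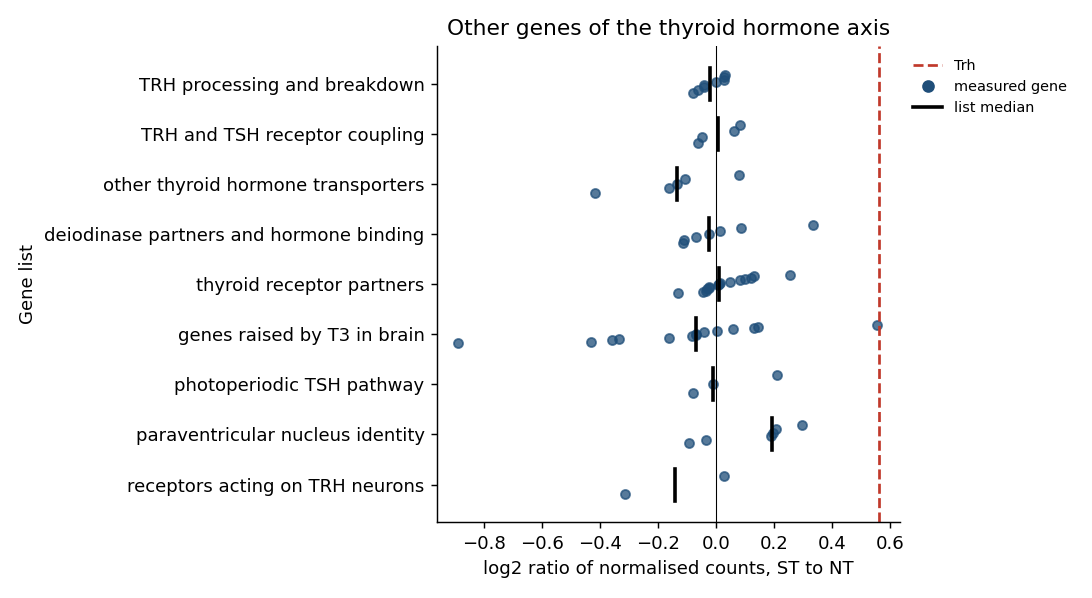
Log2 ratio of ST to NT normalised counts (horizontal axis) for the measured genes of 9 lists around the thyroid hormone axis (points, 1 per gene), with list medians (black bars) and Trh (0.56, dashed red line). Hr, among the genes raised by T3, is the point next to Trh, and the medians lie between -0.14 and 0.19.

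Across the axis, 2 of the 6 measured genes, Trh and Thra, had an interval above 1, where 7.79% of all measured genes did, and 1, Slco1c1, had an interval below 1, beside 10.2%. At least 1.2-fold higher was 1 gene, Trh (3.37% of all measured genes), and at least 1.2-fold lower was 1, Slco1c1 (6.13%). None reached 2-fold in either direction, which 0.0209% of measured genes did upward and 0.23% downward. The median log2 ratio of the 6 was 0.10, beside 0.00 for all measured genes. Since the genes were chosen with results known, these counts describe the set and do not test it.

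**Figure D5:**
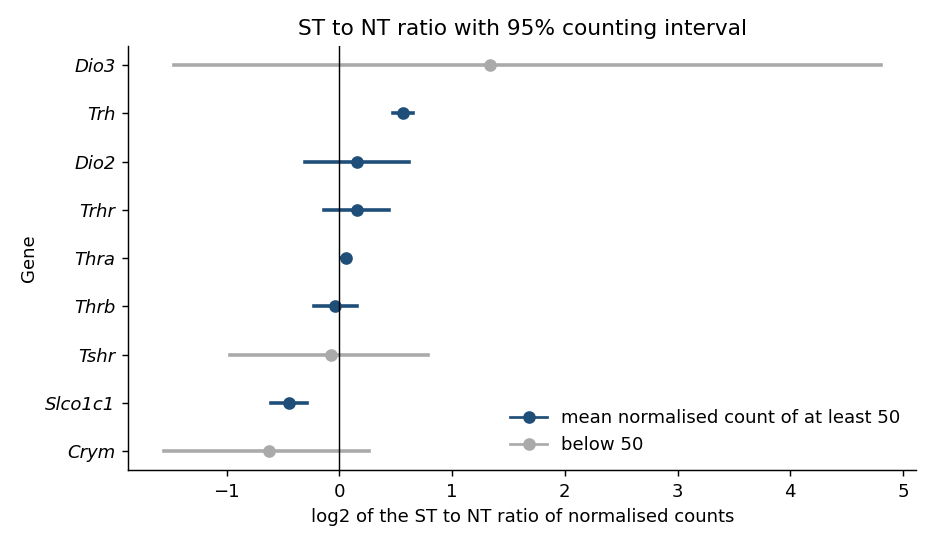
ST to NT ratio of normalised counts on a log2 scale (horizontal axis) for each of the 9 genes, with 95% exact counting intervals; blue genes passed the filter on normalised counts and grey genes did not. The intervals of Trh and Thra lie above 0, that of Slco1c1 lies below it, and those of the other 6 hold it.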

How the data were processed

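Per the submitters' processing notes, the tools were TopHat 1.2, CASAVA 1.8.2 and DESeq and the genome build was mm9, their roles and order not being stated; the counter is not given in the sources used here. Per the file headers, the deposited table holds estimated counts (RC), RPKM and RPM for each library, and the authors' fold change of ST over NT, its log2, a p-value and an adjusted p-value. Estimated counts were not whole (tolerance 1e-06) for 42.4% of genes in ST and 43.1% in NT; such genes are said to share reads. A further 3 columns of means were not used. Of the Ensembl identifiers, 23161 were found in GENCODE vM1 on NCBIM37 (mm9), with 99.6% of them overlapping their annotated gene.

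Counts were rounded and scaled by median-of-ratios size factors. Log2 ratios used a pseudocount of 0.5, and folds none. Intervals of ratios are exact Clopper-Pearson intervals of the ST share, those of levels exact Poisson intervals, and those of quotients of 2 genes exact conditional intervals, all at 95%; a floor for counts of 0 was not needed. Python 3.11.15 with scipy 1.17.1 was used, and edgeR 4.0.16 for the TMM factors of an alternative. The calculations were tested on simulated Poisson counts, which hold counting error and no spread between animals, so this does not test the comparison of the groups.

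The members, the 9 axis lists, the 9 marker lists and the rules were chosen with earlier results of these data known. Named are all members, genes overlapping them, up to 4 measured genes per axis list with the largest log2 ratio in either direction, the most abundant and the extreme genes of marker lists, and the 5 genes nearest to Trh; further genes of these lists are named as examples or by their counts, after their values were seen. Alternatives were other scalings, pseudocounts, filters, fold rules, RPKM ratios, whole counts and list means. A few genes of the lists are not reported here by name and stay in the counts and medians.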

Additional observations from a re-analysis of the deposited data

How the results depend on the processing

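No paired analysis was possible because there is only 1 library in ST and in NT, which also means that leaving out a replicate is not an option. Under total-count scaling, TMM, a pseudocount of 5 and ratios of deposited RPKM, all 36 alternative values of the 9 genes stayed within their counting interval, and total-count scaling moved log2 ratios by 0.012. With whole counts only, which removes Thra and Dio2, 1 gene had an interval above 1. At least 1.2-fold higher were 2 genes with no filter, which adds Dio3, and at 1.1-fold and 1.5-fold 3 and 0; at least 1.2-fold lower were 2 with a filter of 10 or none, which adds Crym, and 0 at 1.5-fold. With no filter, 1 gene, Dio3, was 2-fold apart. The other 34 counts were as reported or within 1.5 times of it. Of list medians, 160 moved by no more than the typical counting interval of their genes, and 2 moved, both of the pituitary list (-2.41 with a filter of 200 and with whole counts, against -1.10), where Pomc alone was left. The photoperiodic list, with 3 measured genes, changed sign to 0.10 with a filter of 10 or none, to 0.04 by its mean and to 0.0019 with total counts and with RPKM, the deiodinase partners to 0.02 by their mean, the tanycyte list to -0.018 with a filter of 200, and receptor coupling (-0.00029) and receptor partners (-0.0064) with whole counts. The quotients of genes kept within their intervals, including that of Slco1c1 to endothelium without Slc2a1 (0.889), a choice made after seeing the data. Depth limits Dio3, Crym and Tshr most.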

Other observations

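The marker lists not described with the axis genes gave the following values. Of the 9 measured SCN genes, 2 had an interval above 1 and 2 below, beside 7.79% and 10.2% of all measured genes. Their median log2 ratio was -0.09, from Prok2 at -0.29 to Avp at 0.21. The 8 genes common to neurons lay between -0.11 for Syt1 and 0.06 for Stmn2, with Snap25, the most abundant, at -0.02. Both measured choroid plexus genes had intervals that held 1, Clic6 at 0.14 and Kl at 0.03. All 8 microglial genes were lower in ST, from P2ry12 at -0.51 to Csf1r at -0.15. Of the 7 pituitary and pars tuberalis genes, Gh, Prl, Cga and Pou1f1 had no row in the table used here, Lhb was at 0.21, and Pomc, which arcuate neurons also express, was 5.32-fold lower in ST (4.46 to 6.38).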
